A study of Mus musculus with 19 samples.

Results

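The respiratory chain of the inner mitochondrial membrane is built from 4 protein complexes, and most of their subunits are encoded in the nucleus. The genes described here are these nuclear-encoded structural subunits. They were chosen by gene symbol and not by any measured value, though earlier results of these data were known. Of 68 such genes in the mouse annotation, 66 had counts, and these 66 of the 34807 genes counted were followed: 38 of complex I, 4 of complex II, 8 of complex III and 16 of complex IV. Cox7b2 and Cox8c were not analysed here. The members lie on 18 chromosomes, and all 66 passed the filter on low counts.

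The mRNA was measured by bulk RNA-seq of poly(A) RNA in 19 libraries from female mice on a C57BL/6J background. BRAFV600E was induced in the skin at 7 to 20 weeks of age, per the labels, by a tamoxifen-inducible Cre recombinase (CreERT2), and the tumours were labelled squamous cell carcinoma. The Cre was driven by the Ivl promoter (Ivl:BRAFV600E, 6 tumours), the Krt5 promoter (K5:BRAFV600E, 5 tumours) or the Krt14 promoter (K14:BRAFV600E, 4 tumours), and 4 libraries came from normal skin of WT mice, the study's control littermates. All 15 tumours therefore carry the oncogene. Per the study's methods the inducer was tamoxifen for Ivl and 4-hydroxytamoxifen for K5 and K14, so the agent goes with the group. The study also reports a far longer time to tumour onset in the Ivl model, so time since induction goes with the group too. The age at harvest of each library is not given in the sources used here. The study describes lesions at several body sites in the Ivl model and on the back in the K5 and K14 models, and which site each Ivl library came from is not given in the sources used here. Following the study, K5 and K14 tumours were joined as K5/K14 tumours (9 libraries).

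Complex I (NADH dehydrogenase) and complex II (succinate dehydrogenase) pass electrons to ubiquinone, complex III (the cytochrome bc1 complex) passes them on to cytochrome c, and complex IV (cytochrome c oxidase) passes them to oxygen. Complexes I, III and IV pump protons, and the gradient they build drives ATP synthase, known as complex V. Complex II pumps none, is also an enzyme of the citric acid cycle, and has no subunit encoded in mitochondrial DNA. Several complex IV subunits exist in a common form and in a form made mainly in striated muscle, lung or testis.

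The libraries held 45715309 to 72609771 counts. Levels are given as CPM (each count scaled to a fixed library total) after TMM scaling, which lines libraries up on genes assumed to be unchanged. Changes are log2 fold changes with the standard error (SE) of edgeR's quasi-likelihood test, and an adjusted p (Benjamini-Hochberg, over all 32031 genes tested) under 0.05 counts as raised or lowered. The scaling matters for every comparison with skin. The TMM factors were 1.43 to 1.66 in skin and 0.806 to 1.15 in the tumours, so a gene with an equal share of the counts in skin and tumour is reported as higher in the tumour. With TMM the median change of all genes stood at -0.46 in Ivl and -0.60 in K5/K14 tumours against skin. That of protein-coding genes with a mean of 20 CPM or more, a class that holds 60 of the 66 members, stood at 0.46 and 0.51. Results were therefore also computed with total counts as the only scaling, and with size factors taken from that class. These 2 scalings were chosen after the data were seen.

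Ivl tumours 1, 2 and 3 and K5 tumour 1 form a set, because their mean level nearly matched that of the other 15 libraries gene by gene. The mean log2 level of these 4 libraries differed from that of the others by less than 0.1 for 96.6% of the 13954 genes above 2 CPM, and for all 65 members above that level, although all skin libraries are among the others. The study adjusted the counts for sequencing batches whose sizes are those of this set and of the rest, but the labels do not say which libraries formed each batch. The part of this adjustment in the levels of these 4 libraries was not tested. Counts of members below are also given without these 4 libraries. Nothing in the labels says that the replicates of a group came from separate mice, so the p-values measure the spread between these libraries, which may be technical.

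With TMM scaling nearly all subunits of complexes I, III and IV stood higher in both groups of tumours than in skin, and those of complex II changed less. The median fold over the 66 members was 1.89 in Ivl and 1.89 in K5/K14 tumours. In Ivl tumours 55 of the 66 members were raised and 0 lowered, with a median change of 0.92, where 20.4% of all genes tested were raised and 15.5% lowered. In K5/K14 tumours 57 were raised and 3 lowered, with a median of 0.92, where 23.2% of all genes were raised and 38.9% lowered. Among the abundant protein-coding class, 53.6% were raised in Ivl and 57.9% in K5/K14 tumours. Every tumour was above every skin library for 50 members in the Ivl comparison, where this held for 13.2% of all genes. It did for 52 in the K5/K14 comparison, where it held for 16.7%. The 2 comparisons share the skin libraries. In bulk tissue, fewer cells of a type and less RNA per cell cannot be told apart.

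How many members count as raised depends on the scaling. With total counts, 17 members were raised and 6 lowered in Ivl tumours (8.95% and 48.3% of all genes), and 20 were raised and 14 lowered in K5/K14 tumours (10.1% and 64.5%). With size factors from the abundant class, 37 were raised and 1 (Cox6b2) lowered in Ivl tumours (12.1% and 39.2% of all genes), and 39 were raised and 7 lowered in K5/K14 tumours (14.4% and 56.6%). Rescaling shifts all genes of a library alike, so the distance of the members from that class had to stay nearly constant. Over 6 scalings their median lay 0.45 to 0.46 above the class median in Ivl and 0.41 above it in K5/K14 tumours. This distance is a description and does not test whether the calls hold under another scaling. Without the set of 4 libraries, 57 were raised and 2 lowered (Cox6b2 and Cox7a1) in Ivl tumours, and 58 were raised and 4 lowered (Cox6a2, Cox6b2, Cox7a1 and Cox8b) in K5/K14 tumours.

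Summed over its 38 genes, complex I reached 1218, 1445, 1415 and 1498 CPM in the 4 skin libraries. The Ivl tumours ranged from 1989 to 3555 with a median of 2781, and the K5/K14 tumours from 2371 to 3376 with a median of 2651. Complex III stood at 460.3 to 565 in skin, 787 to 1402 in Ivl and 980.0 to 1329 in K5/K14 tumours. No tumour overlapped skin for either complex with TMM scaling, and Ivl tumour 2 was the lowest tumour for both.

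Complex IV stood at 700.4 to 957 CPM in skin, 1129.7 to 2020.0 in Ivl and 1489.8 to 2088 in K5/K14 tumours, again without overlap with TMM scaling. Complex II stood at 256 to 322 in skin, 356 to 408 in Ivl and 328 to 389 in K5/K14 tumours. Its ratio of group means to skin was 1.28 in Ivl and 1.21 in K5/K14 tumours, where complex III had 2.08 and 2.07. The sums were not computed with other scalings. With total counts 3 of the 4 subunits of complex II were lowered in both groups of tumours.

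**Figure D1:**
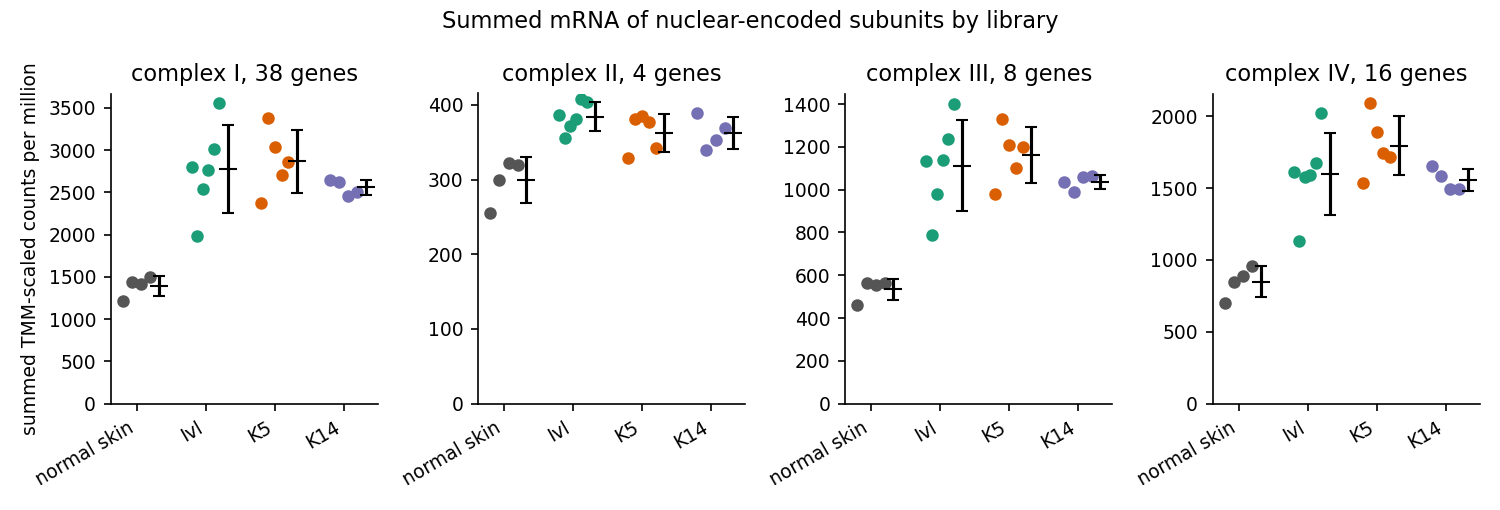
Summed TMM-scaled CPM of the nuclear-encoded subunits of each complex (y axis), 1 point a library, by group (x axis), with the mean and SD of each group. With this scaling tumours lie above skin in every panel, by the smallest margin for complex II. There skin ranged from 256 to 322 and the tumours from 328 to 408. With total counts 3 of the 4 subunits of complex II were lowered in both groups of tumours.

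A ratio taken within a library does not depend on how libraries were scaled. It still depends on the batch adjustment, which changes single counts. The summed CPM of complexes I, III and IV was 9.30, 9.51, 8.87 and 9.46 times that of complex II in the skin libraries. In the Ivl tumours this ratio ran from 11.0 to 17.3 with a median of 14.4, and in the K5/K14 tumours from 13.7 to 17.8 with a median of 14.9. No tumour overlapped skin, and the lowest was Ivl tumour 2, which belongs to the set of 4 libraries. The ratio of ATP synthase to complex II lay at 6.02 to 7.01 in skin and at 8.43 to 12.8 in the tumours. The ratio of complex I to complex IV overlapped between groups, at 1.56 to 1.74 in skin, 1.61 to 1.80 in Ivl and 1.55 to 1.68 in K5/K14 tumours. Ndufa4, now known as a subunit of complex IV, is counted with complex I by its symbol. It stood at 73.5 to 85.5 CPM in skin and at 148 to 736 in the tumours. The overlap holds for this assignment, and the ratio with Ndufa4 in complex IV was not computed. These ratios are described without a test.

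**Figure D2:**
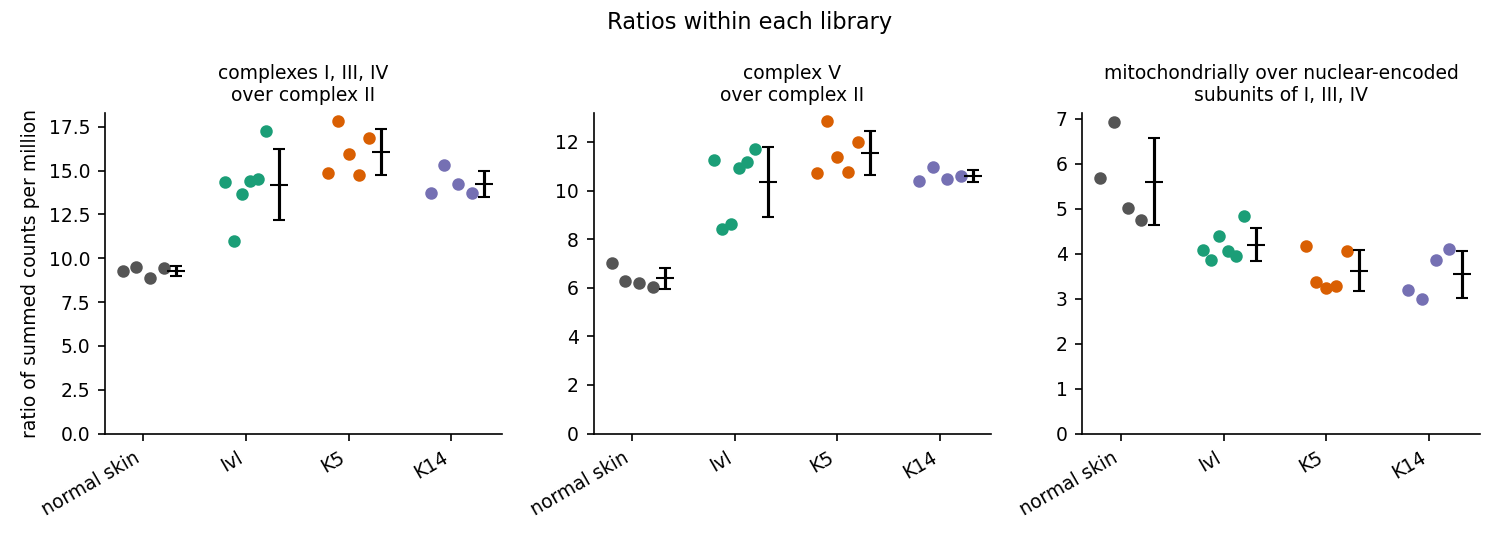
Ratios of summed CPM within each library (y axis), 1 point a library, by group (x axis), with mean and SD. The panels show complexes I, III and IV over complex II, ATP synthase (complex V) over complex II, and mitochondrially over nuclear-encoded subunits. The first ratio lay at 8.87 to 9.51 in skin and at 11.0 to 17.8 in the tumours.

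In complex I, 33 of 38 subunits were raised in Ivl tumours and 35 in K5/K14 tumours, with median changes of 0.90 and 0.92. Of all genes 20.4% and 23.2% were raised, and of the abundant protein-coding class 53.6% and 57.9%. The core subunits of complex I include those that carry the flavin and the iron-sulphur clusters. Ndufs1, which holds iron-sulphur clusters, stood at 74.5, 89.3, 72.3 and 70.2 CPM in skin, at 96.9 to 141 in Ivl tumours (median 118) and at 89.8 to 125 in K5/K14 tumours (median 99.8). All tumours were above all skin libraries. Its change was 0.60 (SE 0.12) in Ivl and 0.41 (SE 0.12) in K5/K14 tumours, but -0.12 and -0.40 with total counts, where it was lowered in K5/K14 tumours.

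Ndufv1, the flavoprotein that takes electrons from NADH, was raised by 0.88 (SE 0.14) in Ivl and 0.86 (SE 0.13) in K5/K14 tumours. Of the other core subunits, Ndufs3, Ndufs7, Ndufs8 and Ndufv2 were raised by 0.56 to 1.12 in Ivl and by 0.54 to 1.08 in K5/K14 tumours. With total counts Ndufs3 and Ndufs7 turned negative in both groups and Ndufv2 in K5/K14 tumours. The calls for Ndufv1 and Ndufs8 were lost with total counts in both groups. These 2 genes stood at 0.16 and 0.41 in Ivl and at 0.051 and 0.27 in K5/K14 tumours. The call for Ndufs7 in Ivl tumours was lost with total counts (adjusted p = 0.588 by edgeR). With size factors from the abundant class it was lost too (0.060, adjusted p = 0.782 by edgeR). DESeq2, RLE size factors, TMM from protein-coding genes, edgeR's own filter on low counts and the replicate block also ended it. So did leaving out either of 2 single libraries (normal skin 1 and normal skin 4), with an adjusted p of up to 0.0699 by edgeR.

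Some accessory subunits, which surround the core, changed by more than the core subunits named above. Ndufb10, in the membrane arm, had the smallest adjusted p of complex I in Ivl tumours. It stood at 23.9, 29.7, 26.9 and 27.3 CPM in skin, at 47.4 to 87.3 in Ivl tumours (median 76.9) and at 59.9 to 100.2 in K5/K14 tumours (median 77.7). Every tumour was above every skin library, with a change of 1.41 (SE 0.18, adjusted p = 1.94e-05) in Ivl and 1.53 (SE 0.17) in K5/K14 tumours by edgeR.

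Ndufa8, another accessory subunit, had the smallest adjusted p of complex I in K5/K14 tumours. It stood at 25.2, 27.7, 31.4 and 32.2 CPM in skin. The range was 44.7 to 65.1 in Ivl and 55.7 to 70.8 in K5/K14 tumours, also without overlap with TMM scaling. The change of Ndufa8 was 1.09 (SE 0.11, adjusted p = 1.43e-06) in K5/K14 tumours and 0.93 (SE 0.12) in Ivl tumours by edgeR. With total counts it stayed raised in K5/K14 tumours (0.29, adjusted p = 0.0275 by edgeR). The call in Ivl tumours was lost (0.22, adjusted p = 0.110 by edgeR). Under all 6 scalings 8 subunits of complex I were raised in Ivl tumours, namely Ndufa1, Ndufa12, Ndufa4, Ndufa9, Ndufb10, Ndufb6, Ndufb8 and Ndufs6, and 11 in K5/K14 tumours.

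Ndufa13, Ndufb2 and Ndufb4 passed in neither comparison with skin with TMM and are named here after their values were seen. Ndufa13, also known for a role in cell death, changed by 0.23 (SE 0.16) and 0.29 (SE 0.15), and with total counts it was lowered in both groups. Ndufb2 and Ndufb4 changed by 0.42 and 0.53 in Ivl and by 0.26 and 0.15 in K5/K14 tumours. With total counts they stood at -0.31 and -0.18 in Ivl tumours, and both were lowered in K5/K14 tumours, at -0.56 and -0.66. Without the set of 4 libraries both were raised in Ivl tumours, by 0.57 and 0.75. Ndufb2 (chromosome 6, 39592574 to 39603382, plus strand, GRCm38) shares 146 bp of exon with Braf on the opposite strand. In all, 23 of the 66 members share exon bases with another annotated gene, and 27 share 100 bp or more at 95% identity or above with another annotated transcript, overlapping genes included. Their counts may be split or mixed and are uncertain to that extent.

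**Figure D3:**
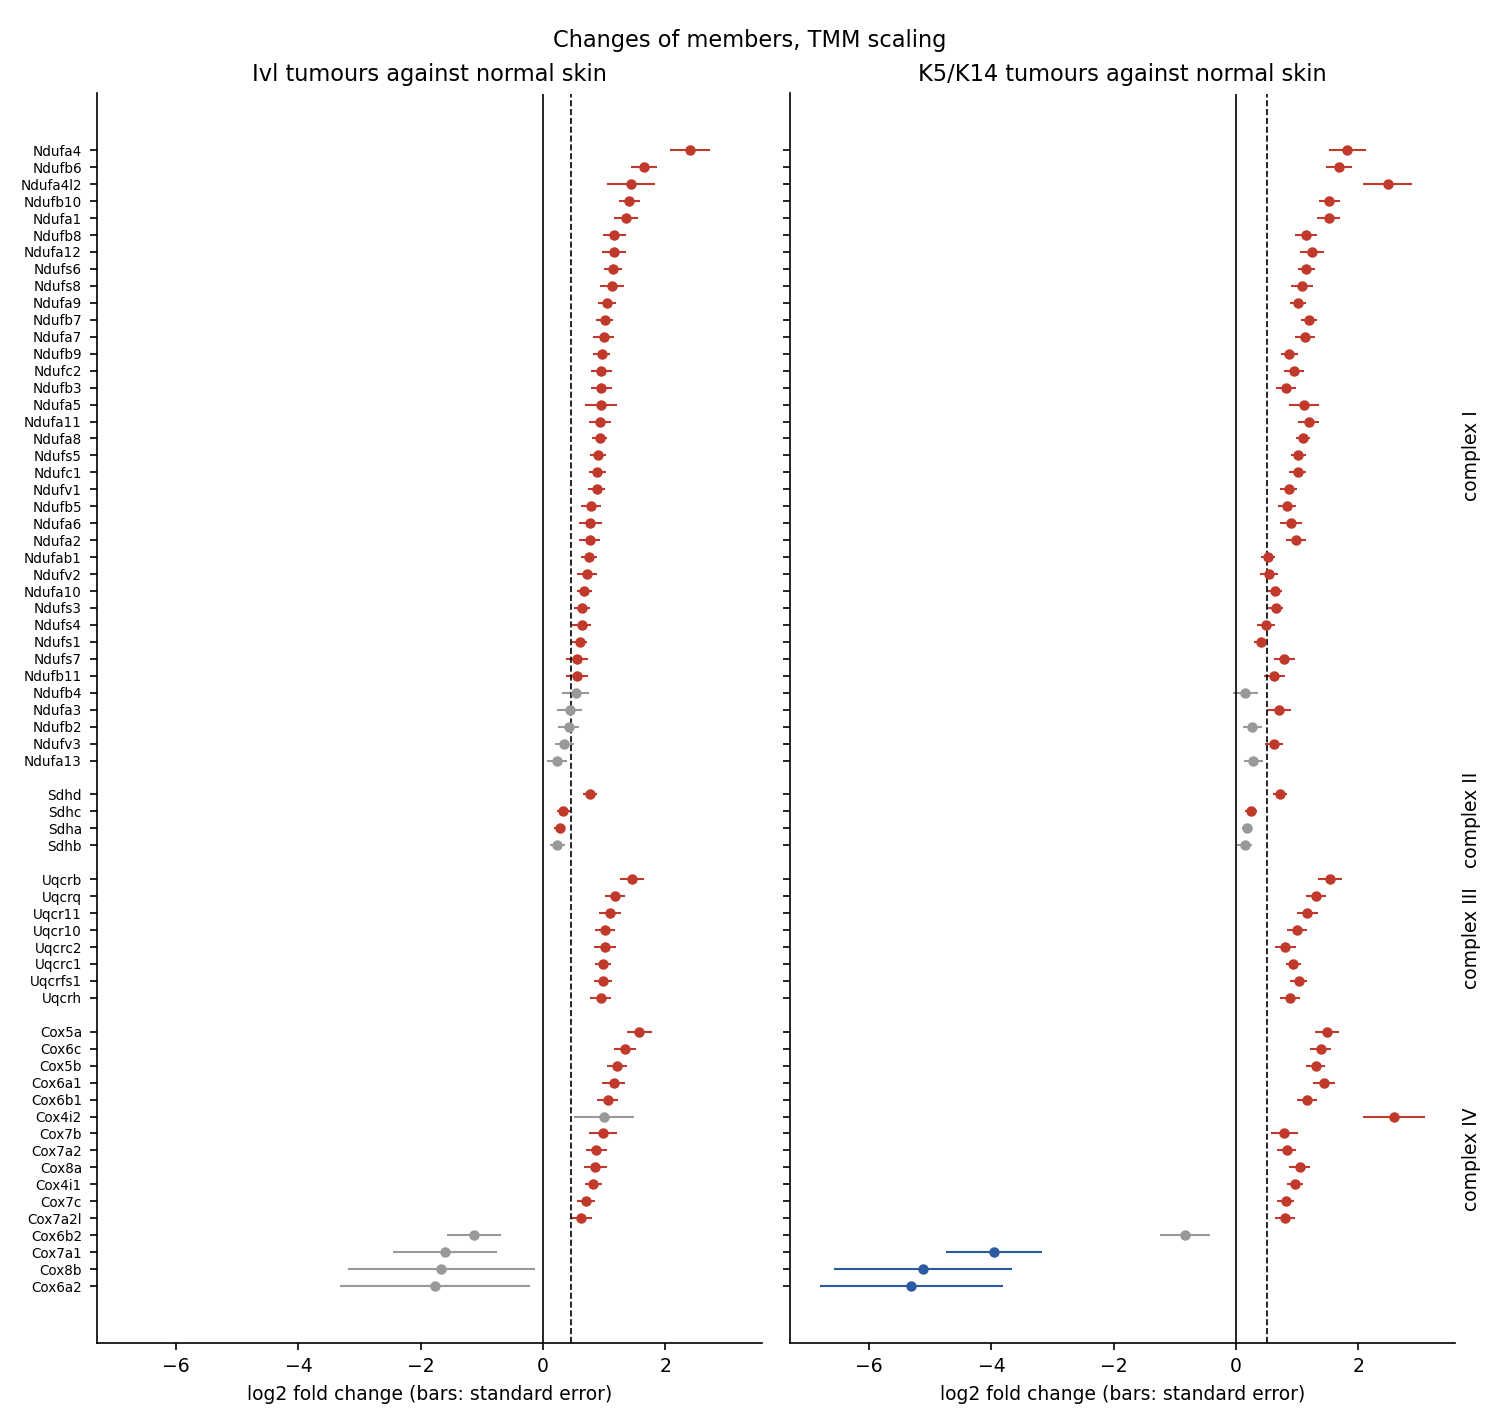
Log2 fold change of 65 members against normal skin with TMM scaling (x axis, bars are SE), by complex, for Ivl tumours (left) and K5/K14 tumours (right). Red points were raised, blue lowered and grey neither, and the dashed line is the median of protein-coding genes with a mean of 20 CPM or more (0.46 and 0.51); 3 of the 4 subunits of complex II lie to its left, and Cox6a2, Cox7a1 and Cox8b lie far below 0 in K5/K14 tumours.

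Ndufa4 was first assigned to complex I and is now known as a subunit of complex IV, though its symbol counts it with complex I here, and Ndufa4l2 is a paralogue known for its induction in low oxygen. Ndufa4 (chromosome 6, 11900292 to 11907497, minus strand, GRCm38) stood at 73.5, 85.5, 81.8 and 83.1 CPM in skin. It ranged from 215 to 736 in Ivl tumours (median 446) and from 148 to 409 in K5/K14 tumours (median 276), with Ivl tumour 6 the highest and K5 tumour 1 the lowest tumour. Its change was 2.41 (SE 0.33, adjusted p = 2.28e-05) in Ivl and 1.82 (SE 0.30, adjusted p = 7.06e-05) in K5/K14 tumours by edgeR, and with total counts it stayed raised, by 1.65 and 0.995. As a level per kilobase of transcript, Ndufa4 was the highest member in both tumour groups, at 704 CPM per kb in Ivl and 468 in K5/K14 tumours, ahead of Cox6b1 at 349 and 374. In skin Cox4i1 and Cox6b1, at 169 and 167, stood above Ndufa4 at 133.

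Ndufa4l2 (chromosome 10, 127514967 to 127517154, plus strand) stood at 7.41, 17.7, 30.0 and 27.1 CPM in skin, at 30.4 to 80.6 in Ivl tumours (median 57.2) and at 51.6 to 169.7 in K5/K14 tumours (median 119). All tumours were above all skin libraries, though Ivl tumour 3 only just. Its change was 1.45 (SE 0.39, adjusted p = 0.00797) in Ivl and 2.48 (SE 0.40, adjusted p = 5.46e-05) in K5/K14 tumours by edgeR. With total counts the call in Ivl tumours was lost (0.75, adjusted p = 0.0712 by edgeR).

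The log2 ratio of Ndufa4l2 to Ndufa4 within each library, with 0.1 CPM added to both, differed by -1.56 between Ivl and K5/K14 tumours (two-sided exact permutation test, p = 0.0036, adjusted p = 0.00925 over 18 such tests). Against skin it differed by -0.75 in Ivl (exact p = 0.238) and by 0.81 in K5/K14 tumours (exact p = 0.129), neither beyond the spread between libraries. As levels per kilobase, Ndufa4l2 made up 6.18% to 19.3% of the pair in skin, 2.85% to 17.0% in Ivl and 8.21% to 39.5% in K5/K14 tumours.

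In complex II, Sdha and Sdhb form the catalytic pair, a flavoprotein and an iron-sulphur protein. Sdha (chromosome 13, 74322254 to 74350280, minus strand, GRCm38) stood at 121, 143, 151 and 140.4 CPM in skin, at 152 to 180.2 in Ivl and at 142 to 169 in K5/K14 tumours. It was raised by 0.27 (SE 0.094, adjusted p = 0.0289) in Ivl tumours by edgeR, and its change of 0.18 (SE 0.087, adjusted p = 0.0751) in K5/K14 tumours did not pass. Sdhb changed by 0.24 (SE 0.13) and 0.14 (SE 0.12), neither past the threshold, with overlapping groups. Of the membrane anchors, Sdhc was raised by 0.33 (SE 0.11) and 0.24 (SE 0.10), and Sdhd by 0.77 (SE 0.12, adjusted p = 6.81e-05) and 0.72 (SE 0.11, adjusted p = 4.39e-05) by edgeR.

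The direction of Sdha, Sdhb and Sdhc turns with the scaling. With total counts they were lowered in both groups, at -0.43, -0.46 and -0.36 in Ivl and at -0.62, -0.66 and -0.56 in K5/K14 tumours. The call for Sdhd was lost with total counts, at 0.064 in Ivl and -0.083 in K5/K14 tumours (edgeR, adjusted p = 0.602 and 0.452). With size factors from the abundant class Sdhd stayed raised in Ivl tumours (0.27, adjusted p = 0.0384 by edgeR). In K5/K14 tumours that call was lost (0.19, adjusted p = 0.0840 by edgeR). The TMM calls for Sdha and Sdhc in Ivl tumours were also lost with DESeq2, that for Sdha was lost without any 1 of K14 tumour 1, Ivl tumour 5, skin 1, skin 2 and skin 4, and that for Sdhc without either of K14 tumour 1 and skin 1, with adjusted p of up to 0.109 and 0.0787 by edgeR. That for Sdhc in K5/K14 tumours was lost with DESeq2 and without any 1 of K14 tumour 1, K5 tumour 3, K5 tumour 4, K14 tumour 3, K5 tumour 5, Ivl tumour 4, K14 tumour 4 and skin 1, with an adjusted p of up to 0.193 by edgeR. Relative to the abundant class the median of complex II lay at -0.16 in Ivl and -0.30 in K5/K14 tumours.

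In complex III all 8 subunits were raised in both comparisons with TMM, with median changes of 1.01 and 1.01. Of the abundant protein-coding class 53.6% were raised in Ivl and 57.9% in K5/K14 tumours. Every tumour was above every skin library for all 8, which held for 13.2% and 16.7% of all genes. Uqcrb, known as a ubiquinone-binding subunit, had the smallest adjusted p of the complex in Ivl tumours. It stood at 33.4, 41.7, 35.6 and 41.2 CPM in skin, 69.9 to 152 in Ivl and 90.3 to 144 in K5/K14 tumours, with a change of 1.46 (SE 0.20, adjusted p = 2.21e-05) in Ivl tumours by edgeR. Uqcrq, a small accessory subunit, had the smallest adjusted p in K5/K14 tumours, with 60.2, 70.1, 67.4 and 70.2 CPM in skin and 142 to 210.4 in these tumours, a change of 1.31 (SE 0.16, adjusted p = 3.28e-06) by edgeR.

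The Rieske iron-sulphur protein Uqcrfs1 was raised by 0.98 (SE 0.14) in Ivl and 1.03 (SE 0.14) in K5/K14 tumours. The core proteins Uqcrc1 and Uqcrc2 were raised by 0.98 and 1.01 in Ivl and by 0.94 and 0.81 in K5/K14 tumours. With total counts 4 of the 8 were raised in Ivl and 3 in K5/K14 tumours, and 0 were lowered.

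In complex IV the common subunits and the muscle forms differed. Of its 16 members, 11 were raised in Ivl tumours and 12 in K5/K14 tumours, with median changes of 0.87 and 0.90. Of all genes 20.4% and 23.2% were raised, and of the abundant protein-coding class 53.6% and 57.9%. Cox5a, on the matrix side, had the smallest adjusted p in Ivl tumours. It stood at 22.9, 19.8, 22.9 and 20.1 CPM in skin, at 29.3 to 81.2 in Ivl tumours (median 70.7) and at 47.5 to 71.8 in K5/K14 tumours (median 59.6), with all tumours above skin. Its change was 1.58 (SE 0.21, adjusted p = 2.06e-05) in Ivl and 1.49 (SE 0.20) in K5/K14 tumours by edgeR.

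Cox5b, a zinc-binding subunit, had the smallest adjusted p in K5/K14 tumours, from 47.0, 51.6, 56.1 and 59.0 CPM in skin to 100.3 to 171, a change of 1.31 (SE 0.16, adjusted p = 2.86e-06) by edgeR. Cox4i1, the common form of subunit 4 (chromosome 8, 120668222 to 120674207, plus strand, GRCm38), was raised by 0.82 (SE 0.14) in Ivl and 0.97 (SE 0.13) in K5/K14 tumours. Cox6a1, Cox6b1, Cox7a2, Cox7a2l, Cox7b and Cox8a were raised by 0.63 to 1.15 in Ivl and by 0.79 to 1.44 in K5/K14 tumours. With total counts Cox5a, Cox5b, Cox6a1, Cox6b1 and Cox6c stayed raised in both groups, while Cox7a2l stood at -0.074 in Ivl and Cox7b at -0.021 in K5/K14 tumours.

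Cox6a2, Cox7a1 and Cox8b, the forms made in striated muscle, were lowered in K5/K14 tumours. Cox6a2 (chromosome 7, 128205435 to 128206387, minus strand, GRCm38) stood at 15.7, 38.1, 21.2 and 15.02 CPM in skin, Cox7a1 (chromosome 7, 30184144 to 30186078, plus strand) at 7.03, 12.6, 6.62 and 5.15, and Cox8b (chromosome 7, 140898945 to 140900446, minus strand) at 11.1, 25.1, 16.9 and 10.01. In the K5/K14 tumours they ranged from 0 to 3.7, 0.0253 to 1.11 and 0 to 1.99, and every tumour was below every skin library. The changes were -5.31 (SE 1.49, adjusted p = 0.00589), -3.96 (SE 0.78, adjusted p = 0.000358) and -5.12 (SE 1.46, adjusted p = 0.00631) by edgeR, and all 3 were lowered under all 6 scalings.

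In Ivl tumours the same 3 genes changed by -1.77, -1.601 and -1.66, with adjusted p of 0.355, 0.134 and 0.373 by edgeR. Their levels ran from 0 to 21.8, 0.184 to 8.11 and 0 to 15.6 CPM. Ivl tumour 2 held 21.8, 8.11 and 15.6, within the range of skin for each. Cox7a1 was lowered in Ivl tumours with total counts (-2.19, adjusted p = 0.0447 by edgeR) and without the set of 4 libraries (-3.00, adjusted p = 0.0106 by edgeR), which include Ivl tumours 2 and 3.

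The levels of the muscle forms went with those of other muscle genes. A list of 17 skeletal muscle genes, among them titin (Ttn), a fast myosin heavy chain (Myh4) and skeletal actin (Acta1), summed to 5912, 16412, 6578 and 3994 CPM in the skin libraries. It summed to 8293, 3255 and 774 in Ivl tumours 2, 3 and 6, to 858 in K14 tumour 1, and to 15.3 to 253 in the other tumours. None of the 17 was at 0 in every library of a group. Skin 2 was the highest library for the list and for all 3 genes, and the 4 tumours named were the highest tumours for all 3. Of the list 0 genes were called in Ivl tumours (edgeR, 0 at an unadjusted p under 0.05) and 16 were lowered in K5/K14 tumours. Of all genes 38.9% were lowered in K5/K14 tumours. Ivl tumours 2 and 3 belong to the set of 4 libraries. The part of muscle content, and of the batch adjustment, in these changes was not tested.

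**Figure D4:**
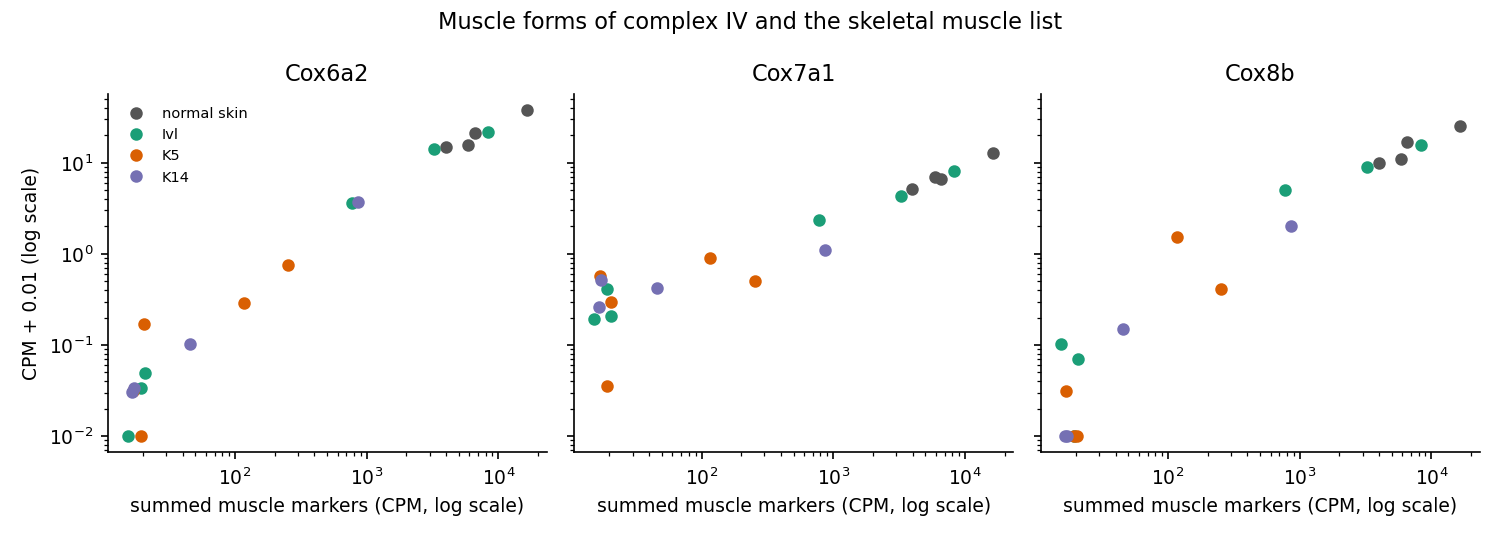
CPM + 0.01 of Cox6a2, Cox7a1 and Cox8b (y axis, log scale) against the summed CPM of the 17 skeletal muscle genes (x axis, log scale), 1 point a library, coloured by group. Skin (3994 to 16412 on the x axis) and Ivl tumours 2 and 3 (8293 and 3255) lie at the upper right, and most tumours at the lower left. Ivl tumours 2 and 3 belong to the set of 4 libraries.

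Within each pair of forms, the share of the muscle form is free of the scaling between libraries, but not of the batch adjustment. As levels per kilobase, Cox6a2 made up 13.1% to 36.9% of the pair with Cox6a1 in skin, Cox7a1 11.2% to 26.4% of the pair with Cox7a2, and Cox8b 14.6% to 39.9% of the pair with Cox8a. In the K5/K14 tumours these shares were at most 1.595%, 1.95% and 1.86%. The log2 ratios differed between K5/K14 tumours and skin by -7.66, -4.70 and -6.90 (two-sided exact permutation test, p = 0.0014 for each, the smallest the design allows, adjusted p = 0.00629).

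In Ivl tumours the ratios differed from skin by -5.36 (exact test, adjusted p = 0.0686), -3.45 (exact test, adjusted p = 0.0476) and -4.55 (exact test, adjusted p = 0.0701), in the same order. The call for Cox7a1 was lost without any 1 of 7 of the 10 libraries, namely skin 1, 2 and 3 and Ivl tumours 1, 4, 5 and 6 (exact test, adjusted p up to 0.0952). Without the set of 4 libraries the ratios of Cox6a2 and Cox8b passed, at -6.99 and -6.04 (exact test, adjusted p = 0.0468 for both).

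The promoters of a common and of a muscle form are shown because these kinds of complex IV subunit differed in direction in K5/K14 tumours. The 250 bases before the transcription start are from RefSeq (GRCm38.p6), written 5′ to 3′ on the strand of the gene. Capitals mark matches to GCGCATGC, the core of sites for the nuclear respiratory factor NRF-1, to CCGGAAG, the core of sites for ETS factors such as GABP, or to CAGCTG, an E-box of a kind bound by muscle factors, each on either strand. The first lies at chr5:115348959-115349208 (minus strand) and the second at chr7:140900447-140900696 (minus strand).
Cox6a1: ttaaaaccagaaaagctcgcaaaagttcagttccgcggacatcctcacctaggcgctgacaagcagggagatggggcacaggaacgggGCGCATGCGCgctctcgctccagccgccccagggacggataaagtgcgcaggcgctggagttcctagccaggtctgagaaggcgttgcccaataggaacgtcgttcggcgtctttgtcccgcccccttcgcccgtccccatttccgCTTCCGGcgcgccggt
Cox8b: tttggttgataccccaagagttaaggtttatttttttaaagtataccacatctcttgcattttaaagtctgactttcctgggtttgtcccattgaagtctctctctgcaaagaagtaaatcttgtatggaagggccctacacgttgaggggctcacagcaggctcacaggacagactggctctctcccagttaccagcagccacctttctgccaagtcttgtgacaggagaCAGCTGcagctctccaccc

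The Cox6a1 stretch holds GCGCATGC on both strands, overlapping, and CCGGAAG on the opposite strand. The Cox8b stretch holds neither and has 1 E-box. Of the 66 members, 53 had a promoter in the table, in 55 windows. GCGCATGC was in 5 (9.09%) of these and in 2.26% of all 32851 promoter windows, and CCGGAAG in 8 (14.5%) and in 6.91% of all. CAGCTG was in 5 (9.09%) and in 13.0% of all, and TATAAA, the TATA box, in 5 (9.09%) and in 12.4% of all. The members with CCGGAAG were Cox6a1, Cox6b1, Ndufb6, Ndufb7, Ndufs3, Sdhd, Uqcr11 and Uqcrh. These matches describe letters and not bound sites.

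Among the other tissue forms, Cox4i2 differed between the groups of tumours. It is the form of subunit 4 known from lung (chromosome 2, 152754173 to 152765037, plus strand, GRCm38). It stood at 0.567, 0.225, 0.815 and 1.21 CPM in skin, at 0.417 to 2.92 in Ivl tumours (median 1.34) and at 2.00 to 6.47 in K5/K14 tumours (median 4.12). All K5/K14 tumours were above all skin libraries, while the Ivl tumours overlapped both other groups. Cox4i2 was raised by 2.58 (SE 0.51, adjusted p = 0.000312) in K5/K14 tumours by edgeR, and its change of 0.998 (SE 0.49, adjusted p = 0.108) in Ivl tumours did not pass. Between the groups of tumours it stood at -1.58 (SE 0.41, adjusted p = 0.0455), lower in Ivl tumours.

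Cox4i2 was the 1 member of 66 called between Ivl and K5/K14 tumours by edgeR, where 2.36% of all genes were called. The call was lost without any 1 of 15 of the 19 libraries (adjusted p up to 0.0811 by edgeR), and was kept without Ivl tumour 3, K14 tumour 1, skin 2 or skin 4. Without the set of 4 libraries it was lost too (-2.02, adjusted p = 0.0989 by edgeR). The ratio of Cox4i2 to Cox4i1 within each library differed by -1.55 between Ivl and K5/K14 tumours (exact permutation p = 0.0026, adjusted p = 0.00839), and its adjusted p by the exact test stayed between 0.00503 and 0.0195 under every alternative run. A list of 6 endothelial genes summed to 47.5 to 336 CPM in skin, 74.2 to 320.1 in Ivl and 157 to 373 in K5/K14 tumours; its part in the level of Cox4i2 was not tested.

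Cox6b2, the testis form of subunit 6b (chromosome 7, 4751792 to 4753094, minus strand), was low throughout, at 2.37, 2.03, 2.19 and 1.95 CPM in skin, 0.384 to 2.30 in Ivl and 0.599 to 1.78 in K5/K14 tumours. Its changes of -1.13 (SE 0.45, adjusted p = 0.0543) and -0.84 (SE 0.41, adjusted p = 0.079) by edgeR did not pass. It was lowered in both groups in 8 of 11 settings, among them DESeq2, TMM from protein-coding genes, total counts and the 15 libraries. Its ratio to Cox6b1 differed from skin by -2.36 in Ivl (exact permutation p = 0.00952, adjusted p = 0.0214) and by -2.03 in K5/K14 tumours (exact permutation p = 0.0014, adjusted p = 0.00629). The call in Ivl tumours was lost without any 1 of the same 7 libraries as for Cox7a1 (exact test, adjusted p up to 0.0536).

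**Figure D5:**
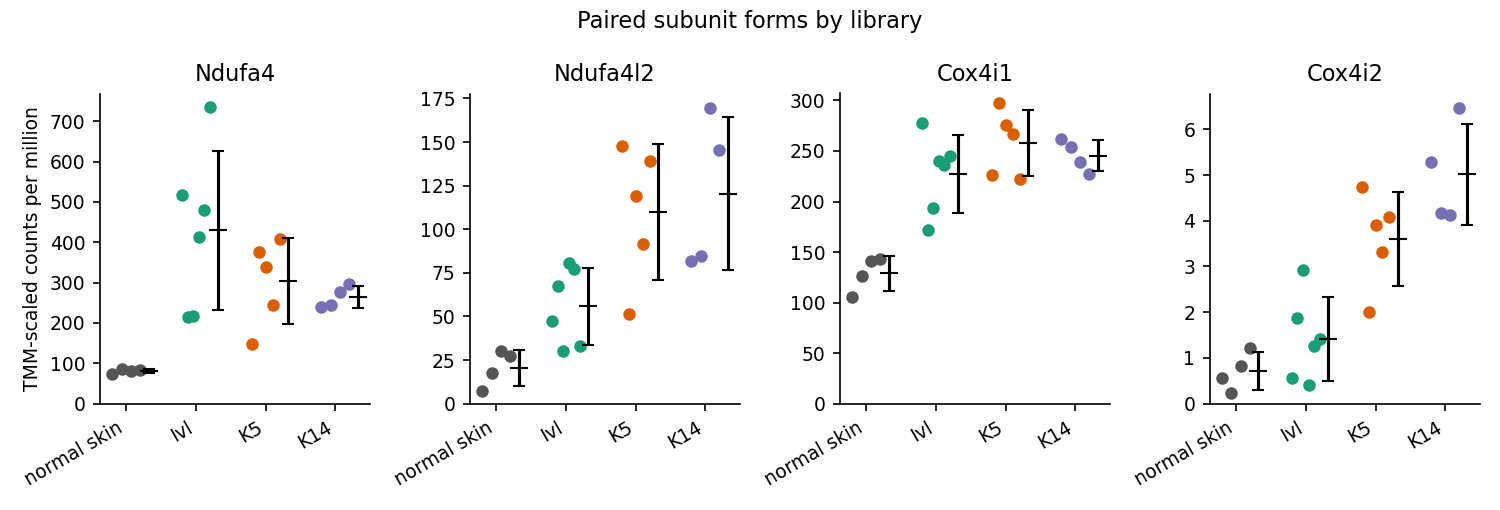
TMM-scaled CPM of Ndufa4, Ndufa4l2, Cox4i1 and Cox4i2 (y axis, starting at 0) by group (x axis), 1 point a library, with mean and SD. Ndufa4 lay at 73.5 to 85.5 in skin and at 215 to 736 in Ivl tumours, and Cox4i2 at 2.00 to 6.47 in K5/K14 and 0.417 to 2.92 in Ivl tumours.

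No other member was called between the groups of tumours. The median difference over the 66 between Ivl and K5/K14 tumours was -0.044, and 9 of 66 members had an unadjusted p under 0.05. Ndufa4 stood 0.59 (SE 0.24, adjusted p = 0.165) higher in Ivl tumours by edgeR, and Ndufa4l2 at -1.03 (SE 0.31, adjusted p = 0.0794). Cox6a2, Cox7a1 and Cox8b stood at 3.55, 2.36 and 3.45 with adjusted p of 0.147, 0.0775 and 0.149 by edgeR. Without the set of 4 libraries they stood at 0.996, 0.88 and 1.73 (edgeR, adjusted p = 0.881, 0.709 and 0.723). DESeq2 called Cox4i2, Cox7a1 and Ndufa4l2.

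Between K5 and K14 tumours 0 members were called by edgeR and 0 by DESeq2, where edgeR called 0.0% of all genes. The median difference was 0.17, 57 of 66 members were higher in K5 tumours, and 3 had an unadjusted p under 0.05, with Cox7c lowest (0.38, SE 0.13, adjusted p = 0.704 by edgeR). These values do not show that the tumours were alike.

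Among the 15 tumours the members had a median SD of 0.26 on the log2 scale. The 7 members with an SD over 0.5 were Cox8b (3.25), Cox6a2 (3.24), Cox7a1 (1.79), Cox4i2 (1.14), Cox6b2 (0.77), Ndufa4l2 (0.77) and Ndufa4 (0.60). Each belongs to a pair of forms compared above.

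Other genes of the same machinery were followed as lists. With TMM 20.4% of all genes were raised in Ivl and 23.2% in K5/K14 tumours, and 53.6% and 57.9% of the abundant protein-coding class. All 17 genes of ATP synthase (complex V) were raised in both comparisons, with medians of 1.09 and 1.105, and with total counts 9 and 7 were. Its catalytic subunit Atp5b stood at 514 to 624 CPM in skin, 804 to 1429.5 in Ivl and 985 to 1331 in K5/K14 tumours. The electron carrier cytochrome c (Cycs) and cytochrome c1 (Cyc1), the haem-bearing protein of complex III, were raised in both comparisons, by 1.11 (SE 0.16) and 1.14 (SE 0.14) in Ivl tumours, and both stayed raised with total counts.

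Of the 13 subunits encoded in mitochondrial DNA, 6 were raised in Ivl tumours and 3 (mt-Nd1, mt-Co1 and mt-Co2) in K5/K14 tumours, with medians of 0.62 and 0.32. With total counts 0 were raised by edgeR and 3 and 6 lowered. The ratio of mitochondrially encoded to nuclear-encoded mRNA of complexes I, III and IV was 5.68, 6.94, 5.03 and 4.76 in skin, 3.86 to 4.85 in Ivl and 3.01 to 4.17 in K5/K14 tumours. Of the tumours, Ivl tumour 6 alone overlapped skin.

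Assembly factors, citric acid cycle enzymes and regulators had medians near that of the abundant class. Of 43 assembly factors tested, 22 were raised in Ivl and 25 in K5/K14 tumours, with medians of 0.44 and 0.45, and with total counts 16 and 24 were lowered. Uqcc2, an assembly factor of complex III, was raised by 1.08 (SE 0.19) in Ivl tumours, and Acad9, one of complex I, changed by 0.18 (SE 0.22) without passing, but was lowered with total counts (-0.54). Of 14 citric acid cycle genes beyond complex II, 9 and 12 were raised, with medians of 0.48 and 0.53, but with total counts 0 and 1 were raised and 5 and 7 lowered by edgeR. Malate dehydrogenase Mdh2 was raised by 0.95 (SE 0.13) in Ivl tumours, and the oxoglutarate dehydrogenase Ogdh changed by -0.063 (SE 0.12) without passing, and was lowered with total counts (-0.76). Of 13 regulators of mitochondrial biogenesis, 8 were raised in each comparison, among them Gabpa, part of an ETS factor, by 0.58 (SE 0.14) in Ivl tumours. With total counts 1 was raised in each, 4 and 8 were lowered, and Gabpa stood at -0.14 in Ivl tumours and was lowered in K5/K14 tumours, at -0.43. The coactivator genes Ppargc1a and Ppargc1b, named after their values were seen, were the 2 lowered in K5/K14 tumours with TMM.

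Markers of other cell types were followed as lists, with calls from TMM scaling. Of all genes 20.4% were raised and 15.5% lowered in Ivl tumours, and 23.2% and 38.9% in K5/K14 tumours. A list of 10 keratinocyte genes summed to 8144 to 15449.5 CPM in skin, 38832 to 102888 in Ivl and 53641 to 90521 in K5/K14 tumours, with 8 and 9 genes raised and 1 (Krt15) lowered in K5/K14 tumours. With total counts 6 and 7 were raised and 1 lowered in each comparison. The lists for white adipocytes, brown adipocytes, fibroblasts and leukocytes summed to 280.2 to 1058, 49.0 to 104, 839 to 18449 and 90.8 to 843 in skin and to 148 to 3549.8, 27.0 to 167, 1483 to 15019.7 and 118 to 2828 in the tumours. By edgeR 0 of 10 white adipocyte genes were called in Ivl tumours (3 at an unadjusted p under 0.05) and 5 were lowered in K5/K14 tumours (Cfd, Lep, Plin1, Pnpla2 and Retn). Of 7 fibroblast genes 0 were called in Ivl tumours by edgeR (3 at an unadjusted p under 0.05) and 1 (Dcn) was lowered in K5/K14 tumours. Of 7 leukocyte genes Cxcr2 and S100a8 were raised in both comparisons, and Cd3e and Ptprc were lowered in K5/K14 tumours. Of 5 brown adipocyte genes Ucp1 was raised in both comparisons, and Otop1 and Ppara were lowered in K5/K14 tumours. Of 6 endothelial genes Emcn was raised in both comparisons, and in K5/K14 tumours Tie1 was raised and Tek lowered. These genes were named after their values were seen. No gene of these lists was at 0 in every library of a group. The part of cell make-up in the changes of the subunits was not tested.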

How the data were processed

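Poly(A) RNA of 15 tumours and 4 normal skin samples was sequenced with a strand-specific kit. The authors trimmed the reads (TrimGalore), aligned them to GRCm38 with HISAT2 2.1.0, counted them per gene of Ensembl 100 with featureCounts (Subread 1.6.3), adjusted for batch with ComBat-seq, and deposited the resulting estimated counts, which are whole numbers. ComBat-seq changes single counts, so counting error was not derived from them, and which library belonged to which batch is not given in the sources used here. Library totals were 45715309 to 72609771.

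A gene had to reach 5 counts in 1 library or more to be tested (32031 of 34807, with 2776 dropped). Groups were compared with edgeR 4.0.16 (R 4.3.3), TMM scaling and the quasi-likelihood test, with all libraries in 1 fit and Benjamini-Hochberg adjustment over all genes. The test was first tried on simulated data. Ratios of paired forms were compared by two-sided exact permutation tests (Python 3.11.15). DESeq2 1.42.0, RLE size factors, TMM from protein-coding genes, other filters, a replicate block, the set of 4 libraries left out or as a covariate, and each library left out were tried as alternatives. Scaling by total counts and by abundant protein-coding genes was added after the data were seen.

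The members and all lists were chosen with earlier results of these data known. Genes named with values were the tissue forms and core subunits, the member with the smallest adjusted p of each complex and direction, and at most 3 genes of another list. The values of 1 member are not reported here, though it enters the counts and sums. Gene positions and lengths came from GENCODE mouse release 21 (GRCm38), which matched 34694 gene IDs of the table, and near-identical copies from BLAST 2.17.0.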

Additional observations from a re-analysis of the deposited data

Results flagged for a closer look

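A sample was looked for that stood far from the rest of its group, measured by its gap to the nearest other sample as a share of the group's range. This was done for 114 combinations of a gene or sum and a group, chance alone marks about 1 in 20 of these, and 9 were found. Ivl tumour 2 was low among Ivl tumours for Cox5b at 82.1 CPM (others 119.7 to 145) and for Cox6a1 at 92.6 (others 143 to 185). It was also low for Uqcrq at 89.9 (others 152 to 181) and for Sdhc at 65.1 (others 74.4 to 79.0).

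Skin 1 was low among the skin libraries for Sdhc at 47.0 CPM (others 61.9 to 64.7), for Uqcrc2 at 72.9 (others 90.3 to 92.4) and for the sum of complex III at 460.3 (others 552 to 565). K5 tumour 2 was low among K5/K14 tumours for Cox7a1 at 0.0253 (others 0.251 to 1.11) and high for Ndufs3 at 61.9 (others 49.4 to 55.2).

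The change of Cox4i2 against skin differed between Ivl and K5/K14 tumours by -1.58 on the log2 scale (edgeR, adjusted p = 0.0455). Without 1 library in turn the adjusted p by edgeR ran from 0.0311 to 0.0811, and all but 4 of the 19 omissions ended the call.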

How the results depend on the processing

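The count of members called moved by over 1.5 times with total counts, to 23 in Ivl and 34 in K5/K14 tumours against skin. Between Ivl and K5/K14 tumours, where edgeR called 1, DESeq2 called 3, the set of 4 libraries as a covariate gave 2 (Cox4i2 and Ndufa4), and the 15 other libraries, the replicate block, total counts and the abundant-class factors gave 0 each by edgeR, with a range of 0 to 2 without 1 library in turn. Other alternatives kept these counts within 1.5 times, leaving out each library included (52 to 61 called in Ivl and 59 to 61 in K5/K14 tumours against skin).

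Directions turned for some genes named by rule. With total counts these were, in Ivl tumours against skin, Cox7a2l at -0.074, Ndufs1 at -0.12, Ndufs3 at -0.086, Ndufs7 at -0.13, Sdha at -0.43, Sdhb at -0.46 and Sdhc at -0.36. In K5/K14 tumours against skin they were Cox7b at -0.021, Ndufs1 at -0.40, Ndufs3 at -0.17, Ndufs7 at -0.012, Ndufv2 at -0.27, Sdha at -0.62, Sdhb at -0.66, Sdhc at -0.56, Sdhd at -0.083 and Uqcrc2 at -0.0050. With the abundant-class factors Sdha, Sdhb and Sdhc stood at -0.22, -0.26 and -0.17 in Ivl tumours, and Ndufs1, Sdha, Sdhb and Sdhc at -0.12, -0.35, -0.39 and -0.29 in K5/K14 tumours. TMM from protein-coding genes put Sdha and Sdhb at -0.023 and -0.064 in K5/K14 tumours. Of the genes named after their values were seen, Ndufa13, Ndufb2 and Ndufb4 turned to -0.44, -0.31 and -0.18 in Ivl and -0.50, -0.56 and -0.66 in K5/K14 tumours with total counts. With the abundant-class factors they stood at -0.25, -0.09 and 0.035 in Ivl and -0.24, -0.28 and -0.38 in K5/K14 tumours, and Ndufb4 was positive in 8 of 11 settings there. The cause was not tested.

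Among the ratios of paired forms in Ivl tumours against skin, Cox4i2 to Cox4i1 moved from 0.022 to -0.22 with a pseudocount of 0.5 and to -0.39 in the 15 libraries. Cox6a2 to Cox6a1 passed with a pseudocount of 0.5 (-4.29, exact test, adjusted p = 0.0343) and in the 15 libraries (-6.99), as did Cox8b to Cox8a in the latter (-6.04). Without 1 library in turn the ratio of Cox4i2 ran from -0.35 to 0.30, of Cox6a2 from -6.36 to -4.68, of Cox6b2 from -2.63 to -2.18, of Cox7a1 from -4.10 to -3.03 and of Cox8b from -5.43 to -3.82.

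The replicate block called 51 members in Ivl and 59 in K5/K14 tumours against skin, and 0 between them by edgeR. Same-numbered libraries did not pair: in 25 pairs the correlations of their deviations from group means ran from -0.484 to 0.391, 9 were over 0.1, and 2 of 19 libraries correlated best with their own number. No block was used for the ratios of paired forms. For members near 0 CPM in tumours (Cox6a2, Cox7a1, Cox8b) low counts limit the size of the change, which depends on the prior count.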
